A study of Drosophila melanogaster with 14 samples.

Results

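Embryos of Slbp 10/15 mothers were compared with wild-type (wt) embryos of the same age. The comparison covers each gene whose mean reached 5 normalized counts in either group, and these were 9785 of the 15288 genes listed. Of these, 7448 reached that mean in both groups, 113 in Slbp 10/15 embryos alone and 2224 in wt embryos alone. A gene that entered through a single group had to be high there, so counts are also given by level. CG1894, with means of 5.00 in Slbp 10/15 and 0 in wt, lay just inside the limit, and bab1, with 0.549 in Slbp 10/15 and 4.98 in wt, just outside it.

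The Slbp 10/15 embryos came from transheterozygous mothers with the alleles Slbp10 and Slbp15. These mothers were crossed to wt Oregon R males, so the father brings a normal copy of the gene. Slbp 10/12 embryos, from the same kind of cross with the alleles Slbp10 and Slbp12, were a further allelic combination, and embryos of grp fs1 mothers, with a mutation in the checkpoint kinase gene grp, shared the fit. The wt embryos were Oregon R, which the labels give as the strain background of all groups. Each group had 2 libraries of total RNA from whole embryos of 0 to 180 min after egg laying, stages 1 to 14 per the labels. A pair of wt libraries of 0 to 45 min was used for levels only, and comes from a table that the authors normalized separately. The whole series has 14 libraries. The sources used here do not state separate cultures or collections for the replicates, and the p-values cover no more than the spread of these libraries, which may be technical.

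Slbp encodes the stem-loop binding protein. It binds the hairpin at the end of replication-dependent histone mRNAs, which carry no poly(A) tail, and is needed for their processing. Drosophila embryos start with RNA and protein loaded by the mother and pass through rapid nuclear cycles in a shared cytoplasm. They then switch on their own genes, many of them opened by the factor Zelda (vfl), while much of the maternal RNA is cleared.

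Depth was 18758625 and 21264605 reads in Slbp 10/15, 22204590 and 23410870 in Slbp 10/12, and 17368684 and 18813175 in wt embryos. Genes above 0 numbered 9544 and 9406 in Slbp 10/15, against 11499 and 11524 in wt. In bulk RNA of pooled embryos, fewer cells of a kind and less RNA per cell cannot be told apart.

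The Slbp transcript was low in both Slbp mutants. The gene lies on chromosome 3R from 29152074 to 29153266, on the minus strand in BDGP6.54, and has 2 exons there. Its normalized count, the unit of all gene values here, was 262 and 186 in Slbp 10/15 and 211 and 236 in Slbp 10/12, against 2776 and 2873 in wt. Both libraries of each mutant lay far below both wt libraries. Slbp fell in Slbp 10/15 against wt (log2 fold change -3.67, SE 0.16, adjusted p = 4.2e-05, limma), and the difference between the Slbp mutants was -0.01 on the log2 scale (adjusted p = 1). In wt embryos of 0 to 45 min it had 3294 and 3098. Transcripts of the maternal and the paternal copy were not separated. The gene grp had 13697 and 12828 in Slbp 10/15, against 14113 and 13306 in wt, with a log2 fold change of -0.05 (adjusted p = 0.66). With upper quartile scaling grp was called lower.

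The genes beside Slbp were examined as a check of the locus. Of the 10 listed genes on each side, 18 were in the comparison. Calls among them went both ways, and more fell than rose. Over all genes compared, 39.1% fell and 20.2% rose. On one side ligatin had 1741 and 1756 in Slbp 10/15, against 1287 and 1213 in wt, and rose (log2 fold change 0.48, SE 0.08, adjusted p = 0.0024). On the other Rpn2, a proteasome subunit, had 9165 and 8417 in Slbp 10/15, against 7772 and 8682 in wt, and these libraries overlap (adjusted p = 0.48). Against Slbp 10/12, with 5419 and 5989, Rpn2 was higher in Slbp 10/15 by 0.62 on the log2 scale (adjusted p = 0.035), and no other neighbour was called between these mutants. The largest rise among the neighbours was that of CG11880, with 3862 and 4183 in Slbp 10/15, against 2324 and 2313 in wt. CG14515 had no read in Slbp 10/15, against 5.82 and 6.55 in wt.

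Across the genes compared, falls outnumbered rises, but the balance depended on the filter. By limma, at an adjusted p under 0.05, 5803 genes were called (59.3% of those compared), of which 3826 fell (39.1%) and 1977 rose (20.2%). In 8333 genes (85.2%) the libraries of the groups did not overlap. The median log2 fold change of all 9785 genes was -0.18, and -0.43 with upper quartile scaling. Under that scaling 4832 genes fell and 451 rose, so rises made up 8.54% of the calls, against 34.1% as deposited. Between group means, 2636 genes fell at least 4-fold (26.9%) and 128 rose at least 4-fold (1.31%), and 2801 and 108 did so with upper quartile scaling. Of the 4-fold falls 2441 also passed limma (24.9%). The limma counts were 2550 falls and 1033 rises without Slbp 10/15 replicate 2, 1959 and 1285 without wt replicate 1, and 2025 and 1467 without wt replicate 2. Where every library had to reach 5 normalized counts, 1578 genes fell and 1834 rose, so that rises outnumbered falls. That filter leaves out genes at or near 0 in Slbp 10/15.

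**Figure D1:**
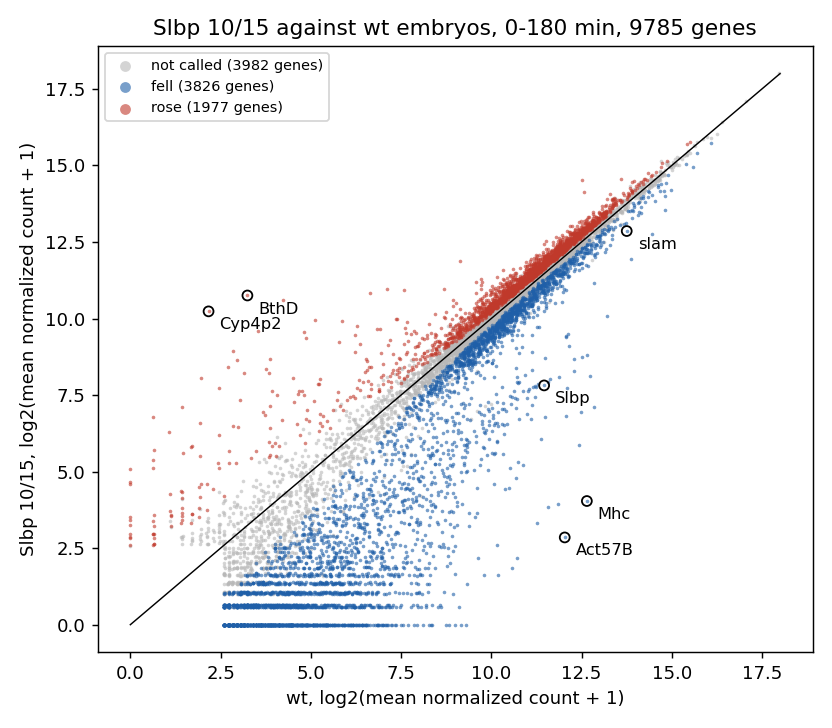
Mean normalized counts of 9785 genes in Slbp 10/15 embryos (vertical) and wt embryos (horizontal) of 0 to 180 min, as log2(mean + 1), with 2 libraries a group. Each point is a gene coloured by its limma call and the line marks equal levels; 3826 genes lie in the class that fell and 1977 in the class that rose.

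The share of genes that fell was also given by wt level, as a description, since the wt mean entered both the choice of genes and the fold change. Of the 2356 genes with a wt mean of 5 to 50, 65.4% fell and 2.55% rose. Of the 1917 genes between 50 and 500, 53.2% fell and 9.29% rose. Among more abundant genes, rises outnumbered falls in the values as deposited. Of the 4437 genes between 500 and 5000, 25.0% fell and 30.5% rose, and of the 962 genes at 5000 or more, 16.0% fell and 33.7% rose. Of the 2356 genes at 5 to 50, 1762 entered through the wt mean alone and had to be lower in Slbp 10/15, and 1453 of these were called. Of the other 594 genes of that class, 88 fell (14.8%) and 60 rose (10.1%). Of the 1917 genes between 50 and 500, 450 entered through the wt mean alone, and of the other 1467, 571 fell (38.9%) and 178 rose (12.1%). A gene with a wt mean of at least 5 was compared whatever its Slbp 10/15 level. Splitting a class by the Slbp 10/15 mean thus sorts its genes by the outcome. It cannot show how far the choice of genes made the falls. These classes were set after earlier results were known. The split was not recomputed with upper quartile scaling, where 451 genes rose in all.

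**Figure D2:**
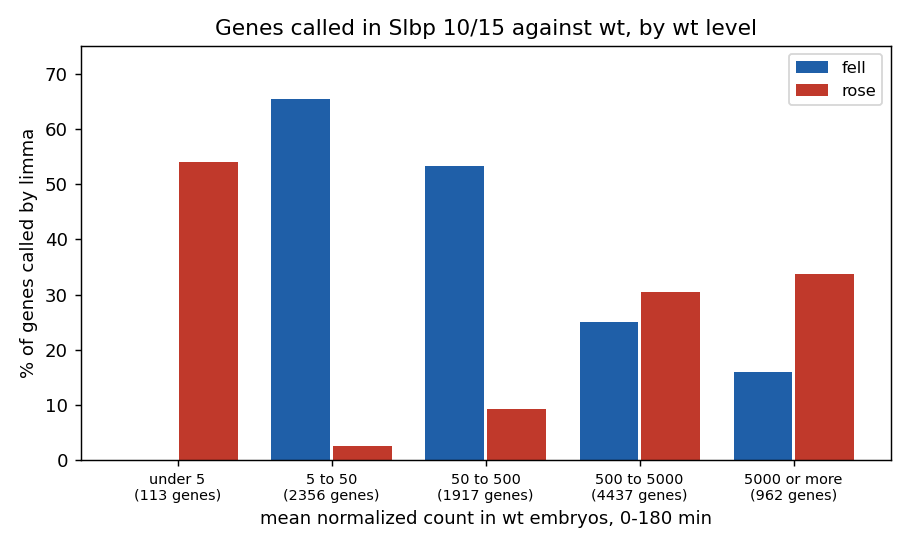
Percentage of genes that fell (blue bars) or rose (red bars) by limma in Slbp 10/15 against wt embryos, by mean normalized count in wt. Falls make up 65.4% at 5 to 50 and 16.0% at 5000 or more. Of the 2356 genes at 5 to 50, 1762 had a Slbp 10/15 mean under 5. Genes under 5 in wt entered through their level in Slbp 10/15, and none of them fell.

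The largest falls were in genes of muscle, extracellular matrix and cuticle. wupA, which encodes troponin I, had no read in Slbp 10/15, against 611 and 653 in wt. Set at 3 reads over both Slbp 10/15 libraries, it was at least 404-fold lower. Act57B, a muscle actin gene, had 5.49 and 6.93 in Slbp 10/15, against 3850.1 and 4542 in wt. Mhc, the muscle myosin heavy chain gene, had 12.1 and 18.8 in Slbp 10/15, against 6053 and 6787 in wt (log2 fold change -8.64, SE 2.45, adjusted p = 0.02). The libraries of the groups were far apart in each of these genes, which were named only among calls whose libraries did not overlap. The Mhc call was nevertheless lost with any 1 of the 4 libraries left out (adjusted p from 0.072 to 0.139), and those of wupA and Act57B with either wt library left out. The fit shares its spread with the grp fs1 libraries, which differed in muscle genes, with list sums of 1610 and 5905.

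Further large falls had the same shape. Ppn, which encodes the matrix protein papilin, had 2.2 and 4.95 in Slbp 10/15, against 1662 and 1710.4 in wt. vkg, a collagen IV gene, had 3.29 and 1.98 in Slbp 10/15, against 1402 and 1649 in wt. up, the troponin T gene, had 2.2 and 1.98 in Slbp 10/15, against 1123 and 1221 in wt. Calls of vkg and up did not hold without wt replicate 1 or 2, nor did that of Mf, a further muscle gene, which was at 0 in Slbp 10/15 and at least 273-fold lower. The cuticle genes TwdlM and TwdlB had no read in Slbp 10/15 and were at least 367-fold and 288-fold lower than wt. Osi6 and ect were likewise at 0 in Slbp 10/15, at least 325-fold and 204-fold lower. CG31813 had 0 and 0.99 in Slbp 10/15, against 533 and 568 in wt. Over all genes compared, 701 had no read in either Slbp 10/15 library, and 84 of these had a wt mean of at least 50.

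Muscle forms only late in embryogenesis, yet wt embryos of 0 to 45 min also held these transcripts. Mhc had 9651 and 8167 in those libraries, Act57B 5180.1 and 4292, and Ppn 2316 and 2229. The muscle list summed to 1908 and 1878 in Slbp 10/15, 1971 and 1897 in Slbp 10/12, 27208 and 30427 in wt of 0 to 180 min and 40259 and 35807 in wt of 0 to 45 min. The part of older embryos in the wt libraries, and so in these falls, was not tested. Mef2, a muscle regulator gene, had 1771 and 1759.8 in Slbp 10/15, against 1611 and 1734 in wt (adjusted p = 0.3).

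By list, 15 of 17 muscle genes fell and none rose, with a median log2 fold change of -7.79. Each list is to be read beside all genes compared, of which 39.1% fell and 20.2% rose. In this and the next paragraphs, counts with 1 library left out are given in the order Slbp 10/15 replicate 1, Slbp 10/15 replicate 2, wt replicate 1, wt replicate 2. They were 13, 13, 1 and 2 for muscle, against 15 with the 2 groups alone. Where every library had to reach 5 normalized counts, few genes of these lists could be tested, and 1 muscle gene, 0 cuticle genes, 3 neuronal genes, 5 hemocyte and matrix genes and 0 Hox genes fell. Of 67 cuticle genes 53 fell (45, 44, 37 and 33 with 1 library left out). The list summed to 158 and 190 in Slbp 10/15, 173 and 155 in Slbp 10/12, 4797 and 7166 in wt of 0 to 180 min and 7472 and 6216 in wt of 0 to 45 min. Its single rise was Cpr49Ae, named after its value was seen, with 56.0 and 54.4 in Slbp 10/15, against 1.16 and 3.27 in wt. Of 14 hemocyte and matrix genes 12 fell (12, 11, 9 and 9), with a median of -5.16. That list summed to 4665 and 4378 in Slbp 10/15, 5202 and 5219 in Slbp 10/12, 18621 and 21234 in wt of 0 to 180 min and 24734 and 23658 in wt of 0 to 45 min. Of 19 genes of differentiated neurons 15 fell (15, 13, 11 and 8). Among them elav, an RNA-binding protein gene of neurons, had 75.8 and 7.92 in Slbp 10/15, against 700.4 and 973 in wt, a call lost without either wt library. All 18 egg shell genes of ovarian follicle cells were under the limit and summed to 8.78 and 14.8 in Slbp 10/15, against 5.82 and 9.82 in wt.

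**Figure D3:**
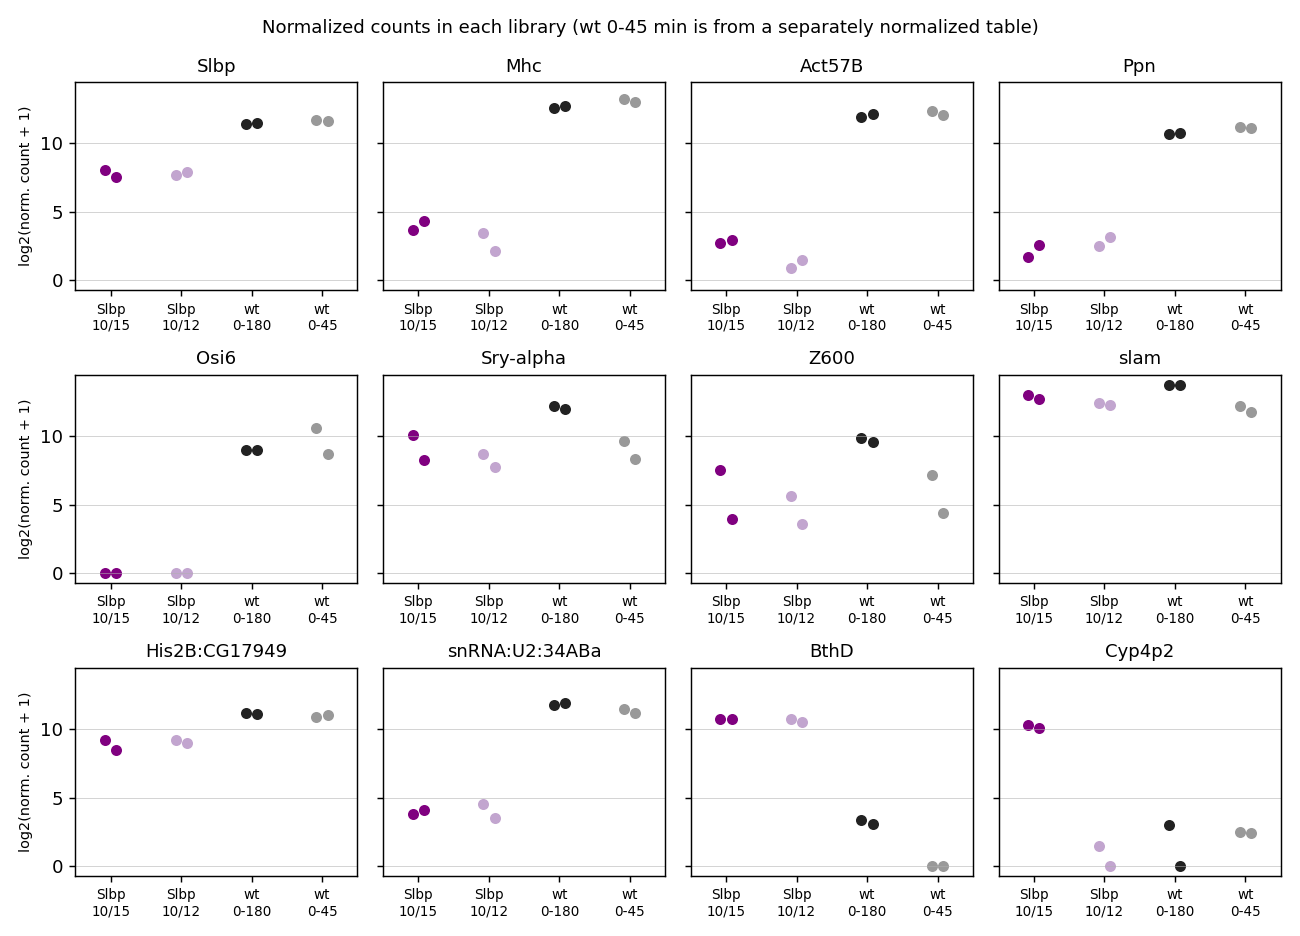
Normalized counts of 12 genes in each library, as log2(count + 1), with 2 points a group for Slbp 10/15, Slbp 10/12, wt of 0 to 180 min and wt of 0 to 45 min (from a separately normalized table). Mhc, Act57B, Ppn and Osi6 are low in both Slbp mutants and high in wt at both ages, whereas Sry-alpha and Z600 are lower in wt of 0 to 45 min than of 0 to 180 min.

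Genes that pattern the embryo were lower in nearly every list. Of 8 Hox genes, which set segment identity, 7 fell (7, 6, 5 and 4 with 1 library left out, in the order above), with a median log2 fold change of -5.17. abd-A had 9.88 and 0 in Slbp 10/15, against 269 and 367 in wt (log2 fold change -6.58, SE 1.18, adjusted p = 0.0038). Antp had 30.7 and 1.98 in Slbp 10/15, against 251 and 327 in wt, and Ubx had 6.59 and 0 in Slbp 10/15, against 250.2 and 255 in wt. Both libraries of Slbp 10/15 were below both of wt. The Hox gene lab had 5.49 and 5.94 in Slbp 10/15, against 20.9 and 26.2 in wt and did not pass (adjusted p = 0.059), although it did with a pseudocount of 5, the replicate block, upper quartile scaling or the 2 groups alone. The call of Antp was lost without either wt library and that of abd-A without wt replicate 2. The Hox list summed to 70.3 and 11.9 in Slbp 10/15, 42.1 and 90.9 in Slbp 10/12, 1066 and 1308 in wt of 0 to 180 min and 517 and 661 in wt of 0 to 45 min. In wt of 0 to 45 min the segment polarity list summed to 976 and 1073, against 576 and 28.7 in Slbp 10/15. The neurogenic list had 2375 and 2252, against 1422 and 805. The other way went the sums of pair-rule genes (8573 and 7853, against 10628 and 10651) and cellularization genes (19392 and 15480, against 25249 and 21000). Most of the pair-rule sums was ftz-f1 alone, with 7930 and 7385, against 9931 and 10460. Most of the cellularization sums came from slam, Bsg25D and dia, with means of 7424, 8071 and 4434 in Slbp 10/15. These sums thus do not describe the other genes of the 2 lists. The part of older wt embryos in these falls was likewise not tested.

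Of 14 gap and head genes 13 fell (13, 9, 3 and 3), with a median of -3.33. Kr, which acts in the middle of the embryo, had 171 and 42.6 in Slbp 10/15, against 1025 and 1077 in wt. The gene D (Dichaete) had 218 and 43.6 in Slbp 10/15, against 1219 and 1416 in wt. hb, whose transcripts are both maternal and zygotic, was closer to wt, with 3375 and 3048 in Slbp 10/15, against 4161 and 3990.3 in wt. The calls of Kr, D and hb were lost without either wt library, and that of hb also without Slbp 10/15 replicate 2. cnc rose (log2 fold change 0.21, SE 0.06, adjusted p = 0.016), with the opposite sign under upper quartile scaling and no call without Slbp 10/15 replicate 1 or wt replicate 2.

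Of 11 pair-rule genes 9 fell (10, 6, 2 and 2), with a median of -3.002. run had 111 and 88.1 in Slbp 10/15, against 441 and 538 in wt. odd had 80.1 and 4.95 in Slbp 10/15, against 472 and 445 in wt. The nuclear receptor gene ftz-f1 was the single rise of the list, with 9931 and 10460.1 in Slbp 10/15, against 6656 and 6476 in wt. Of 11 segment polarity genes 10 fell (11, 6, 4 and 4), with a median of -4.90. wg, the Wnt ligand gene, had 36.2 and 7.92 in Slbp 10/15, against 401 and 472 in wt. In odd and wg, as in Kr and D, Slbp 10/15 replicate 1 was higher than replicate 2 and both were below wt. This gap was not limited to these genes. The Slbp 10/15 sums were 576 and 28.7 for segment polarity genes and 1550 and 905 for dorsal ectoderm and amnioserosa genes. The sums of the muscle list, 1908 and 1878, did not show it. Those of the pair-rule list, 10628 and 10651, were mostly ftz-f1, so they cannot show the gap in its other genes. The cause of the gap was not tested. The calls of run and odd were lost without either wt library.

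Along the dorsoventral axis, 16 of 17 genes of dorsal ectoderm and amnioserosa fell (16, 13, 8 and 8), with a median of -3.60. Ance had 58.2 and 9.9 in Slbp 10/15, against 1418 and 1505 in wt. tld, which encodes a protease of the BMP pathway, had 214 and 48.5 in Slbp 10/15, against 1329 and 1180.3 in wt. Of 17 genes of neurogenic ectoderm and neuroblasts 16 fell (14, 13, 7 and 7). Egfr, the EGF receptor gene, had 312 and 24.7 in Slbp 10/15, against 2051 and 2031 in wt. SoxN had 102 and 7.92 in Slbp 10/15, against 862 and 872 in wt. The calls of tld, Egfr and SoxN were lost without either wt library, and that of SoxN also without Slbp 10/15 replicate 2. Of 14 genes of mesoderm and ventral furrow 10 fell and 1 rose (11, 6, 2 and 3 fell with 1 library left out). fog, a signal of ventral furrow cells, had 2178 and 2239 in Slbp 10/15, against 2799 and 2637 in wt.

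The list of Notch and related genes held 3 genes that were not called, N, Dl and neur. The receptor gene N had 14299.6 and 15112 in Slbp 10/15, against 10913 and 15493 in wt, and these overlap (adjusted p = 0.32). The call for N depended on wt replicate 2, without which N was higher in Slbp 10/15. The ligand gene Dl had 4983 and 5082 in Slbp 10/15, against 5334 and 5509.8 in wt (adjusted p = 0.16), and was called lower with upper quartile scaling. Of the 18 genes 15 fell (13, 12, 7 and 8), with a median of -4.22. Tom, of the Bearded family, had 458 and 83.1 in Slbp 10/15, against 3643 and 3816 in wt (log2 fold change -4.25, SE 0.82, adjusted p = 0.0051, lost without either wt library).

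Zygotic genes of cellularization and inhibitors of mitosis fell in 12 of 13 cases (11, 7, 3 and 4), with a median of -2.70. slam, needed for membrane growth between nuclei, had 8148 and 6699 in Slbp 10/15, against 13705 and 13905 in wt (log2 fold change -0.90, SE 0.16, adjusted p = 0.0033). Sry-alpha had 1082 and 306 in Slbp 10/15, against 4654 and 4013 in wt. Z600, an inhibitor of mitosis, had 184 and 14.8 in Slbp 10/15, against 934 and 779 in wt. In wt of 0 to 45 min Z600 had 144 and 20.1, below the older wt embryos. bnk had 150.4 and 57.4 in Slbp 10/15, against 446 and 839 in wt. halo had 303 and 52.5 in Slbp 10/15, against 1513 and 1426 in wt. nullo had 62.6 and 74.2 in Slbp 10/15, against 315 and 395 in wt. Z600, bnk, halo and nullo were named after their values were seen. The calls of these 4 genes and of Sry-alpha were lost without either wt library, and those of Z600, bnk and halo also without Slbp 10/15 replicate 2. dia rose (log2 fold change 0.18, SE 0.05, adjusted p = 0.019), with the opposite sign under upper quartile scaling and no call without wt replicate 2 or either Slbp 10/15 library.

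Zelda sites upstream of some of these genes are shown because this is the motif that Zelda binds at early zygotic genes. They come from the motif table the study made for genes enriched in late blastoderm embryos. Capitals mark the core CAGGTA, or TACCTG on the other strand.
Z600 site on 3L: gCAGGTAgca
bnk site on 3R: cCAGGTAgtc
halo site on 2L: gCAGGTAgcc
Sry-alpha site on 3R: ttcTACCTGt
kni site on 3L: aCAGGTAgct
sna site on 2L: cCAGGTAgga
The core was in all 210 distinct pairs of gene and site of compared genes outside 2R, which the motif largely fixes. The table gives such a site for 173 genes, of which 154 were compared, 130 fell and none rose, with a median log2 fold change of -2.99. Without Slbp 10/15 replicate 2 the falls were 76, without wt replicate 1 they were 34, and without wt replicate 2 they were 37. The study picked these genes by their level in wt libraries, so they are not independent of a high wt level. Of all genes compared, 39.1% fell and 20.2% rose, with a median log2 fold change of -0.18. Among the 426 genes at least 4-fold higher in the later wt extracts than in the early wt embryos, 76.1% fell and 0.704% rose. Whether genes with a site fell more often than other genes of that class was not tested. kni, a gap gene, had 92.2 and 29.7 in Slbp 10/15, against 492 and 506 in wt. sna, a repressor gene of the mesoderm, had 84.5 and 14.8 in Slbp 10/15, against 319 and 383 in wt. Both were named after their values were seen, and both calls were lost without either wt library, that of sna also without Slbp 10/15 replicate 2.

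Most of the activator genes were not called. vfl, the Zelda gene, had 10445 and 10760 in Slbp 10/15, against 9149 and 10147 in wt (adjusted p = 0.35). Of 7 activators Stat92E and bcd rose (adjusted p = 0.0062 and 0.019), neither of them with upper quartile scaling, and bcd only with Slbp 10/15 replicate 2 and both wt libraries kept. grh fell, with 119 and 4.95 in Slbp 10/15, against 593 and 744 in wt, but not without either wt library or with the 2 groups alone. cad, dl and Trl did not pass, while dl was called lower with upper quartile scaling.

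On the list of X chromosome counting and dosage 8 of 13 genes fell and 2 rose (9, 8, 5 and 6 fell with 1 library left out). Sxl, the sex switch gene, had 3290.3 and 2919.9 in Slbp 10/15, against 5766 and 5344 in wt (log2 fold change -0.84, SE 0.09, adjusted p = 0.0008). Slbp 10/12 had 4237 and 4770, and Slbp 10/15 minus Slbp 10/12 was -0.54 on the log2 scale (adjusted p = 0.026). By chromosome arm, between 33.8% (X) and 40.8% (3L) of the genes fell.

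**Figure D4:**
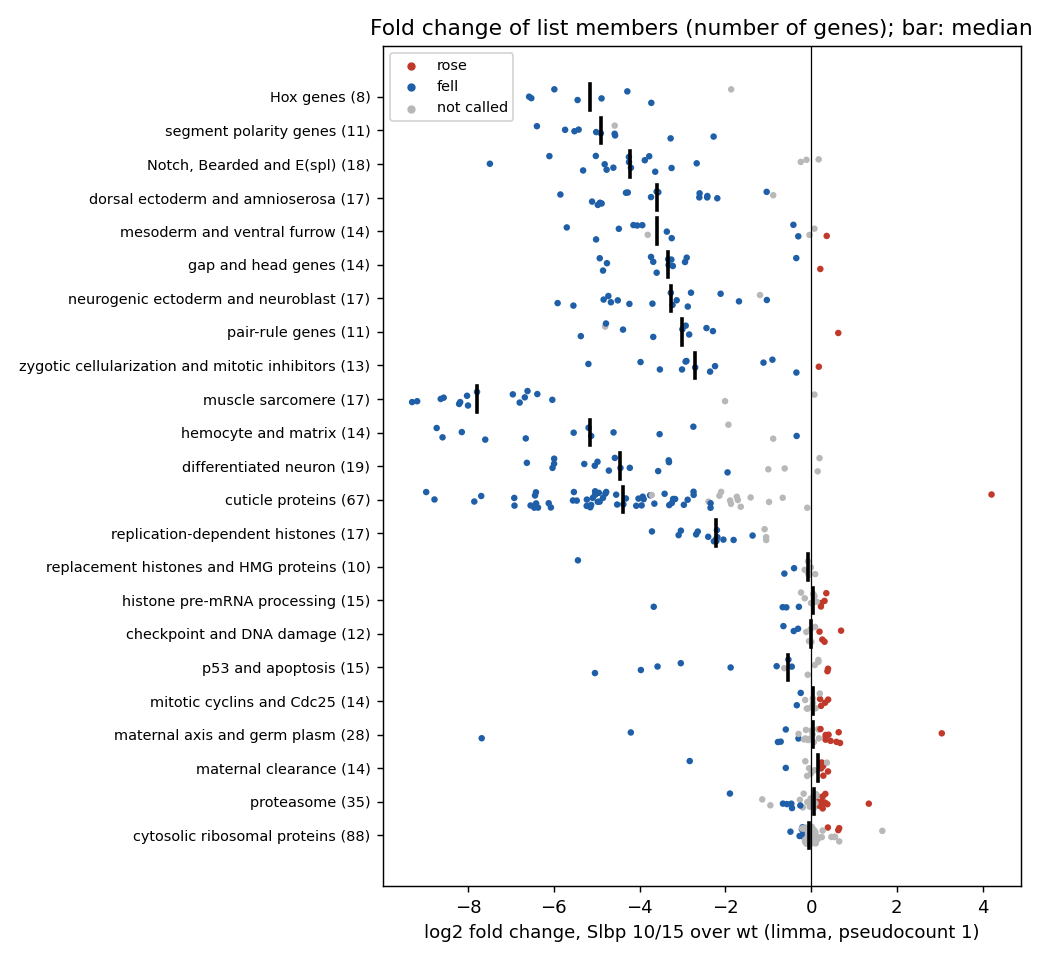
Log2 fold changes, Slbp 10/15 over wt, of the genes of 23 lists (numbers compared in parentheses). Each point is a gene coloured by its limma call and black bars are medians; the medians are -7.79 for muscle, -5.17 for Hox genes, -2.70 for cellularization and 0.05 for maternal axes, and the last is negative with upper quartile scaling.

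Replication-dependent histone genes fell. Of 111 listed genes 17 reached the limit and 14 of them fell (8, 7, 7 and 7 with 1 library left out, in the order above, 8 with edgeR and 3 with DESeq2), with a median log2 fold change of -2.21. His2B:CG17949 had 607 and 359 in Slbp 10/15 and 590.4 and 502 in Slbp 10/12, against 2298 and 2207 in wt (log2 fold change -2.27, SE 0.22, adjusted p = 0.00074 against wt). The list summed to 681 and 406 in Slbp 10/15, against 2613 and 2512 in wt. Copies of a histone gene are nearly identical, so reads may be split or lost in counting and single copies are uncertain.

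Most replacement histone genes, whose mRNAs carry a poly(A) tail, were not called. His3.3B had 22040.5 and 23028 in Slbp 10/15, against 22874 and 22392 in wt (adjusted p = 0.93). His2Av had 15892 and 17009.6 in Slbp 10/15, against 17424 and 16941 in wt, and was called lower with upper quartile scaling. Of 10 genes of this list 3 fell (3, 3, 1 and 2), against 39.1% of all genes compared. With upper quartile scaling 8 fell. HmgD, a chromatin protein gene, had 16090.2 and 15700.1 in Slbp 10/15, against 21434 and 20425 in wt. HmgZ, named after its values were seen, had 90.0 and 5.94 in Slbp 10/15, against 1081 and 1096 in wt, a call lost without either wt library. BigH1, the embryonic linker histone gene, had 8165 and 7915 in Slbp 10/15, against 7600.1 and 7445 in wt (adjusted p = 0.23). Of 10 histone chaperone genes 4 fell and 1 rose. Nap1, the most abundant of those that fell, had 15467 and 14020.4 in Slbp 10/15, against 24427 and 23167 in wt.

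The list of histone pre-mRNA processing factors did not move in one direction. Nor did all genes compared, of which 39.1% fell and 20.2% rose. Of 15 genes, Slbp included, 4 fell and 4 rose (4, 2, 4 and 4 rose with 1 library left out), and with upper quartile scaling 6 fell and 0 rose. mxc, needed for the histone locus body, had 7376 and 7143 in Slbp 10/15, against 5762 and 5918 in wt. FLASH, a further factor of that body, had 1892 and 1831 in Slbp 10/15, against 1466 and 1444 in wt. Lsm10, a protein of the U7 particle, had 152 and 151 in Slbp 10/15, against 219 and 235 in wt, a call kept only without wt replicate 1 among the libraries left out. The rises of mxc and FLASH were lost with upper quartile scaling. FLASH and Lsm10 were named after their values were seen.

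Among small RNAs, snRNA:U2:34ABa, a copy of a spliceosomal RNA, fell against wt (log2 fold change -7.89, SE 0.42, adjusted p = 8.1e-05, limma). It had 13.2 and 15.8 in Slbp 10/15 and 22.0 and 10.5 in Slbp 10/12, against 3481 and 3845 in wt. In grp fs1 it was as low, with 20.5 and 33.0. This RNA is a near-identical copy among several, so the placing of its reads is uncertain. Of 23 small nuclear RNAs 4 fell and 1 rose (2, 1, 3 and 1 fell), and 7 fell with upper quartile scaling, 9 with the 2 groups alone and 2 with DESeq2. Of 116 small nucleolar RNAs 23 fell and 2 rose (14, 7, 11 and 4 fell), with 37 falls at a pseudocount of 5, 34 with upper quartile scaling, 42 with the 2 groups alone, 15 with no filter, 12 with edgeR and 8 with DESeq2. By class of RNA 20% of small nucleolar RNAs fell, against 39.1% of all genes compared. Their median log2 fold change was nevertheless -0.90, against -0.18 for all genes compared.

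Lists of maternal and household genes held calls in both directions, as did all genes compared (39.1% fell and 20.2% rose). Of 88 ribosomal protein genes 7 fell (1, 3, 1 and 2) and 3 rose (2, 2, 2 and 8), RpL28, RpL34a and RpL34b, all named after their values were seen. RpL34b kept its call only without wt replicate 2 among the libraries left out. With upper quartile scaling 34 of this list fell and 2 rose, with DESeq2 14 fell and 5 rose, and with edgeR 1 fell and 9 rose. Of 28 genes of maternal axes and germ plasm 10 rose (7, 6, 5 and 9) and 6 fell, and with upper quartile scaling 3 rose and 10 fell. BicC had 18817 and 19080.2 in Slbp 10/15, against 32890.2 and 31914 in wt. exu had 10059.6 and 11058 in Slbp 10/15, against 17374 and 17111 in wt. osk, which organises the germ plasm, fell (log2 fold change -0.29, SE 0.10, adjusted p = 0.04), a call lost without Slbp 10/15 replicate 2 or either wt library. Of 14 genes that clear maternal RNA 6 rose (5, 0, 1 and 2) and 2 fell, and with upper quartile scaling 0 rose and 5 fell. smg, a trigger of clearance, had 52372 and 54824 in Slbp 10/15, against 43733 and 44526 in wt, a rise lost with upper quartile scaling and without Slbp 10/15 replicate 2 or wt replicate 1.

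Of 35 proteasome genes 12 rose (9, 3, 7 and 3) and 6 fell (5, 5, 3 and 5), and with upper quartile scaling 0 rose and 11 fell. Of 14 genes of mitotic cyclins and Cdc25 4 rose (3, 1, 1 and 3) and 2 fell (1, 0, 0 and 1), with upper quartile scaling 0 rose and 4 fell, and with the 2 groups alone 2 rose and 2 fell. CycB had 87344 and 89882 in Slbp 10/15, against 85186 and 86467 in wt (adjusted p = 0.67). Of 21 DNA replication genes 7 fell (6, 4, 2 and 3) and 6 rose (1, 1, 2 and 4), and with upper quartile scaling 11 fell and 1 rose, and with edgeR 5 fell and 6 rose. RnrS, the small subunit of ribonucleotide reductase, had 9096 and 8744 in Slbp 10/15, against 13474 and 13795 in wt. Over all genes compared, 39.1% fell and 20.2% rose. Of 14 heat shock genes 7 fell and 1 rose. Hsp26, a small heat shock protein gene, had 10235 and 13883 in Slbp 10/15, against 29472 and 28477 in wt.

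Checkpoint genes were mixed, as were all genes compared, of which 39.1% fell and 20.2% rose. Of 12 genes 3 fell (1, 1, 1 and 1) and 4 rose (3, 3, 2 and 2), with upper quartile scaling 6 fell and 1 rose, and with the replicate block or edgeR 1 fell and 4 rose. lok, the Chk2 gene, had 12351 and 11576 in Slbp 10/15, against 12512 and 11587 in wt (adjusted p = 0.92). rad50 had 3454 and 3133 in Slbp 10/15, against 2792 and 2697 in wt, a rise lost with upper quartile scaling and without Slbp 10/15 replicate 1 or either wt library. Of 15 genes of p53 and apoptosis 8 fell (7, 4, 3 and 3) and 2 rose, 4 fell with edgeR, DESeq2 or the 2 groups alone, and none rose with upper quartile scaling. p53 itself had 863 and 912 in Slbp 10/15, against 664 and 684 in wt (log2 fold change 0.40, SE 0.08, adjusted p = 0.0056), a rise lost with upper quartile scaling. rpr, which promotes cell death, had 19.8 and 0 in Slbp 10/15, against 71.0 and 69.8 in wt (adjusted p = 0.043, lost under several alternatives and without Slbp 10/15 replicate 2 or either wt library). Diap1, which blocks caspases, had 2752 and 2846 in Slbp 10/15, against 4064 and 4013 in wt. p53 and rpr were named after their values were seen.

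The largest rises were in genes that were low in wt. Cyp4p2, a cytochrome P450 gene, had 1293 and 1114 in Slbp 10/15, against 6.98 and 0 in wt (log2 fold change 8.73, SE 1.00, adjusted p = 0.001). BthD, a selenoprotein gene, had 1716 and 1734 in Slbp 10/15 and 1722 and 1498 in Slbp 10/12, against 9.31 and 7.64 in wt. GABA-B-R3, a neurotransmitter receptor gene, had 826 and 709 in Slbp 10/15 and 10.1 and 31.5 in Slbp 10/12, against 8.14 and 13.1 in wt, and Slbp 10/15 minus Slbp 10/12 was 5.34 on the log2 scale (adjusted p = 0.0069). In Slbp 10/12 the Cyp4p2 values were 1.83 and 0. In grp fs1 BthD had 1065 and 1237, GABA-B-R3 142 and 182, and Cyp4p2 1.87 and 3.77. The BthD levels were thus high in both Slbp mutants and in grp fs1. GABA-B-R3 and Cyp4p2 were higher in Slbp 10/15 than in Slbp 10/12, and GABA-B-R3 was also above wt in grp fs1. In each of these genes the lowest Slbp 10/15 library was far above the highest wt library. Libraries that did not overlap were a condition for naming them.

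CG34353 had 1545 and 1596 in Slbp 10/15, against 5.82 and 29.5 in wt. spirit, a serine protease gene, had 468 and 215 in Slbp 10/15, against 2.33 and 8.73 in wt. Ir76a, an ionotropic receptor gene, had 386 and 419 in Slbp 10/15, against 5.82 and 7.64 in wt. The other genes among the 12 largest rises were CG4415, CG42565, CG42857, CR43960, CG13857 and scpr-B, with log2 fold changes between 5.14 and 6.46. Of these CG42857 had 459.9 and 249.9 in wt of 0 to 45 min, where BthD had no read. Tep2, of the immunity list, had 1849 and 2185 in Slbp 10/15, against 123 and 153 in wt. Of the 8 genes of that list 2 rose and 4 fell, with a median log2 fold change of -0.99, and where every library had to reach 5 normalized counts 2 rose and 2 fell. GstE1, a glutathione transferase gene, had 1968 and 2046 in Slbp 10/15, against 844 and 834 in wt. GstE1 and BthD were the 2 rises among 17 genes of selenoproteins and detoxification, of which 5 fell (3, 5, 3 and 4 with 1 library left out, in the order above), with a median of -0.68. With edgeR and with DESeq2 3 of that list rose and 3 fell.

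Slbp 10/15 was also compared with Slbp 10/12. Of 9868 genes in the fit, 325 were called (3.29%), with 146 higher in Slbp 10/15 (1.48%) and 179 lower (1.81%). DESeq2 called 464 higher and 468 lower, and limma with the 2 groups alone called 39 higher and 33 lower. The counts were 17 higher and 22 lower without Slbp 10/15 replicate 1, 12 and 16 without Slbp 10/15 replicate 2, 40 and 27 without Slbp 10/12 replicate 1, and 15 and 18 without Slbp 10/12 replicate 2. A gene that missed the threshold is not thereby shown to be alike in both mutants, and both comparisons use the same Slbp 10/15 libraries.

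Cyp4p2 differed most, with 1293 and 1114 in Slbp 10/15, against 1.83 and 0 in Slbp 10/12 (difference 9.48 on the log2 scale, adjusted p = 0.0085). CG13532 had 328 and 94.0 in Slbp 10/15, against 0.915 and 0.874 in Slbp 10/12. Cyp12d1-d, a further cytochrome P450 gene, had 65.9 and 80.2 in Slbp 10/15, against no read in Slbp 10/12. These were near 0 in Slbp 10/12. CG30460 had 291 and 285 in Slbp 10/15, against 3.66 and 6.99 in Slbp 10/12, while its difference from wt did not pass (adjusted p = 0.35) except with the 2 groups alone.

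Other genes were lower in Slbp 10/15. slgA, which encodes proline oxidase, had 102 and 124 in Slbp 10/15, against 1902 and 2506 in Slbp 10/12, while wt had 4506 and 4154. The noncoding pncr009:3L had 23.1 and 22.8 in Slbp 10/15, against 535 and 529.5 in Slbp 10/12, while wt had 1079 and 1092. Both genes were lower in each Slbp mutant than in wt, and lowest in Slbp 10/15. CR40469 had 6.59 and 17.8 in Slbp 10/15, against 445 and 110.1 in Slbp 10/12. Dh44-R2, a hormone receptor gene, had 0 and 0.99 in Slbp 10/15, against 156 and 157 in Slbp 10/12. Of the 35 proteasome genes 8 were lower and 1 higher in Slbp 10/15 than in Slbp 10/12. Called genes made up 2.68% (X and 3R) to 4.82% (4) of those tested on an arm. Against grp fs1, 1619 genes were higher (16.4%) and 1841 lower (18.7%) in Slbp 10/15.

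**Figure D5:**
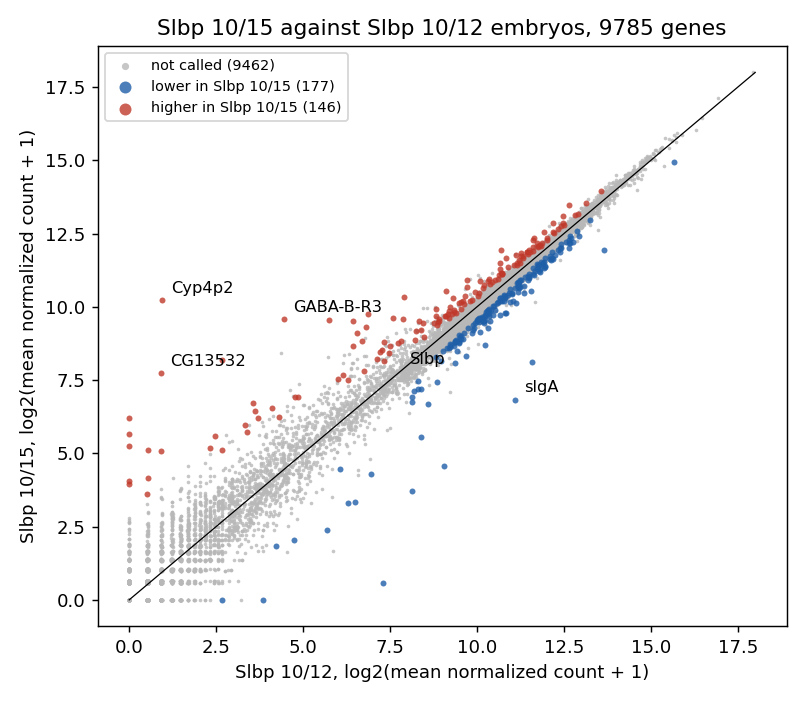
Mean normalized counts of 9785 genes in Slbp 10/15 embryos (vertical) and Slbp 10/12 embryos (horizontal), as log2(mean + 1), with 2 libraries a group. Coloured points passed limma, with 146 higher and 177 lower in Slbp 10/15 among these genes, and Cyp4p2 lies far above the line of equal levels.

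Length, exon number and class of RNA, which were not terms of the fit, were set side by side. The counts were not scaled by length, so length can bear on a gene's level and on its call. The 2441 genes that fell at least 4-fold had a median length of 2015 bases, against 1765.5 for the 3982 genes not called. The 1857 genes that rose less than 4-fold had a median length of 2547. Single-exon genes made up 14.9% of the 4-fold falls, 7.12% of the smaller rises and 13.8% of the genes not called. By class of RNA, 13 of 15 microRNA precursors fell, as did 47.3% of 146 lincRNAs and 39.2% of 9424 protein-coding genes. In wt of 0 to 45 min the 4-fold falls had a median of 32.1 normalized counts.

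The wt libraries of 0 to 45 min were set against later wt embryos (90 to 180 min, cytoplasmic and nuclear values averaged), to sort genes by their change with age in wt. Among the 426 genes at least 4-fold higher late, 76.1% fell and 0.704% rose in Slbp 10/15. Among the 541 genes 2- to 4-fold lower late, 80.0% fell and 2.22% rose. Among the 8060 genes within 2-fold, 33.7% fell and 23.6% rose. Falls were thus more frequent at both ends than in the middle. Of the 2441 genes that fell at least 4-fold, 1286 (52.7%) were at least as high early as late, against 56.2% of the smaller falls, 35.1% of the genes not called and 43.5% of all 9785 genes. The early libraries were of whole embryos and the late values of extracts, so age and fraction cannot be told apart here. The early libraries also held muscle transcripts, with Mhc at 9651 and 8167. A gene as high early as late is thus not shown to be an early transcript. These classes by age were also set with earlier results known.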

How the data were processed

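Total RNA of whole embryos was depleted of ribosomal RNA, sequenced on a HiSeq and aligned by the authors with TopHat to dm3 (BDGP5.78). Reads were assigned to genes with featureCounts. The deposited signal is a normalized count, which the authors obtained by dividing reads by a size factor per library (DESeq per the submitters' processing notes, DESeq2 per the paper). The deposited FPKM values and gene lengths entered no test. Values were whole multiples of 1 read (tolerance 0.01, 100% of values), and these reads gave depth, floors and the input of edgeR and DESeq2.

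Normalized counts were log2-transformed after adding 1 and fitted with limma 3.58.1 in R 4.3.3. The fit took all 8 libraries of the mutant table, a trended variance and 1 coefficient for each of 4 groups, with no block. It covered 9868 genes that reached a group mean of 5. Tests were two-sided and Benjamini-Hochberg adjusted over all of these. Fold changes on this scale understate changes of low genes. A group at 0 was set at 3 reads over both libraries, and such bounds cover counting error only. The fit was tested on simulated data. Promoter motifs and protein sequences were not analysed here.

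The genes compared and the 42 gene lists were chosen with earlier results of these data known. Genes were named by rule: Slbp, grp and 10 neighbours on either side of Slbp; the 12 largest rises and falls among calls whose higher mean reached 50 and whose libraries did not overlap; the top 4 of each list by level, or whole lists of up to 8; and the 4 largest differences from Slbp 10/12 in each direction. Only some of these are described, and genes outside the rule are marked. Positions are from BDGP6.54 (Ensembl 115), which matched 14999 genes by ID and 118 by symbol. The alternatives, fixed beforehand, varied the pseudocount (5), the filter, the block, the scaling, the tool (edgeR 4.0.16 or DESeq2 1.42.0), the groups fitted and the libraries kept. Classes by wt level, by entry and by age in wt were added later.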

Additional observations from a re-analysis of the deposited data

How the results depend on the processing

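Of the counts of calls against wt, rises were 451 with upper quartile scaling and falls 1578 where every library had to reach 5 normalized counts, against 1834 rises, so that rises outnumbered falls there; this filter leaves out genes that fell to 0. With 1 library left out the rises lay between 1033 and 1594 and the falls between 1959 and 3134. Where the higher group had to average 50, 969 genes fell and 69 rose at least 4-fold. Against Slbp 10/12, the genes higher and lower in Slbp 10/15 were 97 and 104 with no filter on low values, 283 and 360 with at least 5 in every library, 464 and 468 with DESeq2, and 39 and 33 with the 2 groups alone, and 60 were higher with upper quartile scaling. With 1 library left out 12 to 40 were higher and 16 to 27 lower. The cause was not tested for these. The other count alternatives stayed within 1.5 times of the values given.

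Replicate numbers did not pair the samples, with a correlation of deviations of -0.03 between Slbp 10/15 and wt. With the replicate number as a block 1973 genes rose and 3754 fell against wt, and 126 were higher and 155 lower than in Slbp 10/12. Among the 89 called genes named in the text, the block lost 1 call, a pseudocount of 5 lost 0, edgeR 5, DESeq2 1, the 2 groups alone 5 and no filter 2, and upper quartile scaling lost 8 and reversed 2. Leaving out a library lost 6 and 14 calls for Slbp 10/15 replicates 1 and 2, and 32 and 34 for wt replicates 1 and 2.

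With upper quartile scaling the log2 fold change turned negative for BigH1 (-0.15), CycB (-0.20), Mef2 (-0.17), N (-0.069), Rpn2 (-0.15), cad (-0.19), cnc (-0.031), dia (-0.065) and vfl (-0.11). With edgeR it turned positive for His2Av (0.015), His3.3B (0.072), grp (0.031) and lok (0.068). With 1 library left out it ran from -0.038 to 0.025 for His3.3B, from -0.076 to 0.43 for N, from -0.021 to 0.13 for cad and from -0.066 to 0.045 for lok. Small changes of genes close to the limit of 5 normalized counts were not detectable at this depth.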
